A study of Mus musculus with 9 samples.

Results

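DNA replication and mitosis genes form a group of 40 genes here, chosen by symbol from the textbook machinery of the dividing cell. They are 40 of the 49671 genes in each of 2 count tables, and all of them were found in both tables. Bulk RNA sequencing had covered a mouse line of pancreatic cancer with a knockout of CD49b (KPC49bKO, here KO) and its counterpart with intact CD49b (KPCWT, here WT). CD49b is integrin alpha 2, a collagen receptor chain encoded by Itga2. The libraries came from KO cultures (2), WT cultures (2), KO tumours (2) and WT tumours (3). Cultured cells were harvested near 80% confluency, and for tumours 1000000 cells were placed under the skin of C57BL/6 mice, whose immune system is matched to the line, then the grown tumours were excised and dissociated with enzymes. The sources used here do not give the age or size of the tumours, nor the sex and age of the mice. Each genotype is 1 line, so that what differs between KO and WT is a difference between lines. In the count table the KO tumours are numbered 1 and 3, and these numbers name them below. Levels are CPM, counts relative to the library's total, scaled by TMM over all 9 libraries, and fold changes are log2 values, KO over WT, from edgeR's quasi-likelihood test, with p-values adjusted by Benjamini and Hochberg over all genes tested. Gene positions follow GENCODE M21 (GRCm38) and span whole genes.

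A cell that commits to division first licenses its replication origins, when Cdc6 and Cdt1 load the Mcm helicase onto DNA, and then fires them in S phase with Cdc45 and the GINS complex. Pcna clamps the polymerases to the template, while ribonucleotide reductase (Rrm1 and Rrm2), thymidylate synthase (Tyms) and thymidine kinase (Tk1) supply nucleotides. Mitosis follows under cyclin B and Cdk1, with spindle motors, checkpoint kinases and centromere proteins, and RNA levels of both sets rise and fall through the cycle, so that in bulk RNA fewer dividing cells and less RNA per dividing cell cannot be told apart.

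The 40 genes were taken by role. Replication genes are the 11 genes Mcm2 to Mcm7, Mcm10, Pcna, Rrm1, Rrm2 and Tyms. Origin and thymidine genes are Cdc6, Cdc45, Cdt1, Gins2 and Tk1, and G1/S genes are the cyclins Ccne1 and Ccne2 and the transcription factors E2f1 and E2f8. S/G2 genes are Ccna2, Top2a and Mki67, and the other 17 are mitotic genes. Counts of these genes ran between 66 and 10684 in a library, so each gene was well above the count filter in each library. Reads may be shared with an overlapping annotated gene for 17 of the 40 genes, Mcm7, Cdt1, Gins2 and Tk1 among them, since the sources used here do not say whether counting used the strand. They may also be shared with a named pseudogene for Pcna, Tyms, Ccnb1 and Ccnb2, since the handling of multi-mapping reads was not given.

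Promoters are shown because the comparison below turns on the replication and the mitotic genes, whose promoters hold different short motifs. Windows of 300 bases (250 before and 50 after the start of transcription) from RefSeq on GRCm38.p6 matched 33 of the 40 genes, with 34 windows. The letters searched on both strands were TTTGAA and TTCGAA for the cell cycle homology region (CHR), CCAAT for the CCAAT box, and TTCCCGC or TTGGCGC or TTCGCGC or TTGCCGC for the E2F family, and matches of the E2F letters can overlap each other or a CCAAT match. The following sequences run from 250 bases before to 30 bases after the start, 5′ to 3′ on the gene's strand, with every motif match in capitals. Mcm3 lies on the minus strand at chr1:20820283-20820562 and Cdc6 on the plus strand at chr11:98907901-98908180, and both stand for replication. Ccnb2 lies on the minus strand at chr9:70421525-70421804 and Cdc20 on the minus strand at chr4:118437314-118437593, and both stand for mitosis.
Mcm3: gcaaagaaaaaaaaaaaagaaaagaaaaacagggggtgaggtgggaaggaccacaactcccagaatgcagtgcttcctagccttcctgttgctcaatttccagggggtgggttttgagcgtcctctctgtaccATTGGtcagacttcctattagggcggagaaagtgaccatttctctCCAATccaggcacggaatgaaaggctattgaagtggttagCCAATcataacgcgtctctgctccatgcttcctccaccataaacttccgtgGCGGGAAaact
Cdc6: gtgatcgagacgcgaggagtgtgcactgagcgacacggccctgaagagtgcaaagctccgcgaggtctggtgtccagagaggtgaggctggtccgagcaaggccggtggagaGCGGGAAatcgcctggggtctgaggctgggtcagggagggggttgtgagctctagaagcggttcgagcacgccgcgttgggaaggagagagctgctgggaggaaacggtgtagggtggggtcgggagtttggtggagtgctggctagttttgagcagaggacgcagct
Ccnb2: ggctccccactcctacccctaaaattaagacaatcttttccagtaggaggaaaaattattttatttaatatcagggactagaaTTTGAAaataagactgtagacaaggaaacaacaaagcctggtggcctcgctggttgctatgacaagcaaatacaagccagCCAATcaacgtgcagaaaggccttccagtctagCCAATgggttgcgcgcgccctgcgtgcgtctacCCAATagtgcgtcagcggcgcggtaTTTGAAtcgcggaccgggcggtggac
Cdc20: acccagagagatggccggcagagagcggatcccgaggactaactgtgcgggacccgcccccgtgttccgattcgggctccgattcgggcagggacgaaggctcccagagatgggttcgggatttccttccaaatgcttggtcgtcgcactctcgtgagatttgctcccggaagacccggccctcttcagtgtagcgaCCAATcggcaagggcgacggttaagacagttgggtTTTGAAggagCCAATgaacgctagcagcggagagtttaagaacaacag

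Of the replication genes' 11 windows, 7 (63.6%) held E2F letters and 2 (18.2%) held a CHR. Of the 14 windows of mitotic genes, 12 (85.7%) held a CHR and 2 (14.3%) held E2F letters. Over all 32851 promoter windows of the table, 9.57% held E2F letters and 19.2% held a CHR. The CCAAT box did not separate the sets, with 10 of 11 replication windows and 13 of 14 mitotic windows against 37.4% of all windows. A CHR and a CCAAT box stood together in 12 of 14 mitotic windows and in 7.52% of all windows. In Ccnb2 the CHR nearest the start lay 4 bases after it, with CCAAT boxes beginning 87, 54 and 21 bases before it, and in Cdc20 the CHR began 18 bases before the start. A match describes letters only. It does not show that a factor binds there, and Birc5, Tk1, Tyms, Ccne1 and E2f1 had no match to any of the letters in their windows.

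**Figure D1:**
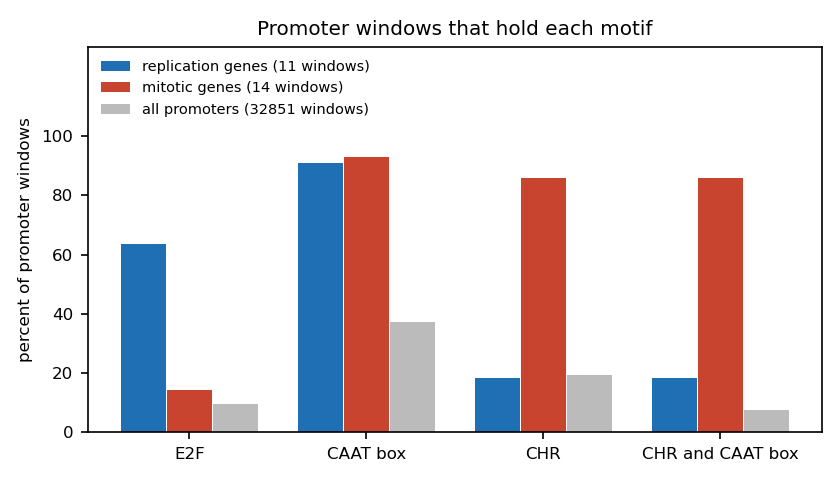
Share of promoter windows that hold each motif (y axis, percent), for E2F letters, the CCAAT box (labelled CAAT box), the CHR, and the CHR with the box, with bars for replication genes (11 windows), mitotic genes (14 windows) and all promoters (32851 windows). The E2F bar is highest for replication genes (63.6%) and the CHR bar for mitotic genes (85.7%), while the box is frequent in both.

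The labels were checked first. Itga2 stood at 96.6 and 104 CPM in KO cultures against 168 and 135 CPM in WT cultures, and at 44.6 and 64.1 CPM in KO tumours against 119, 144 and 137 CPM in WT tumours. Each KO library lay below each WT library of its setting, and transcript was left in all of them. Library totals were 17738774 to 21247023 counts in culture and 16032912 to 19562695 in tumours. Replicates of a group differed by a chi-square per gene of 25.2 to 43.9, except WT tumours 1 and 2, at 6.55, which were closer to each other than any other pair. The 6 epithelial markers (Krt8, Krt18, Krt19, Krt7, Epcam, Cdh1) summed to 10841 to 11191 CPM in KO cultures and 11002 to 12072 CPM in WT cultures. Among them Epcam had 0 and 1 counts in KO cultures against 56 and 53 counts in WT cultures.

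In culture most of the 40 genes fell in KO cells. All 40 had a log2 fold change below 0, and 27 of them fell past an adjusted p of 0.05, against 16.2% of all 13573 genes tested that fell. None rose with edgeR, at an unadjusted p under 0.05 or with DESeq2, against 9.27% of all genes that rose with edgeR. The median over the 40 genes was -0.69, beside a median of -0.00030 over all genes tested. KO and WT libraries did not overlap, with KO lower, for 34 of the 40 genes, against 29.2% of all genes. By log2 fold change the deepest were Gins2, Tk1, Rrm2, Birc5, E2f8 and Ccnb2, in that order, and the smallest changes were those of Kif11 and Mcm2. Mitochondrial transcripts took 2.16% and 2.05% of counts in KO cultures against 4.72% and 3.39% in WT cultures, and their part in the result was not tested.

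Among the replication genes 6 of 11 fell, with a median of -0.49 over the 11. Rrm2 (chromosome 12, 24708241 to 24714146, plus strand), the regulated subunit of the enzyme that makes deoxyribonucleotides, stood at 160 and 186 CPM in KO cultures against 451 and 499 CPM in WT cultures. KO cultures were low and the groups were far apart, with a log2 fold change of -1.50 (SE 0.17, edgeR adjusted p = 3.24e-05). Its partner subunit Rrm1 stood at 68.8 and 75.1 CPM in KO cultures against 93.8 and 90.5 CPM in WT cultures, which did not overlap but did not pass (log2 fold change -0.40, SE 0.16, edgeR adjusted p = 0.0804). The helicase subunits differed in their calls. Mcm4 stood at 43.1 and 43.4 CPM in KO cultures against 74.8 and 69.5 CPM in WT cultures. KO was lower without overlap, and the log2 fold change of -0.78 passed (SE 0.16, edgeR adjusted p = 0.00353). Mcm3, Mcm5 and Mcm6, further subunits of the same helicase, fell by 0.75, 0.49 and 0.70 on the log2 scale. Mcm2 stood at 123 and 129 CPM in KO cultures against 139 and 124 CPM in WT cultures, overlapping groups with a log2 fold change of -0.10 (SE 0.15, edgeR adjusted p = 0.676), and Mcm7, at -0.35, did not pass. Pcna, the sliding clamp, fell by 0.80 on the log2 scale, while Tyms (-0.32) and Mcm10, a helicase activation factor (-0.35), did not pass.

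All 5 origin and thymidine genes fell in KO cultures, with a median of -1.24. Gins2 (chromosome 8, 120578633 to 120589304, minus strand), a subunit of the GINS complex, stood at 20.2 and 29.0 CPM in KO cultures against 69.5 and 98 CPM in WT cultures. That was the largest change among the 40 genes, at -1.81 (SE 0.22, edgeR adjusted p = 6.25e-05). Cdc6 (chromosome 11, 98907801 to 98923940, plus strand), the helicase loader, stood at 8.96 and 11.2 CPM in KO cultures against 23.8 and 22.3 CPM in WT cultures. KO was again lower without overlap, at -1.24 (SE 0.21, edgeR adjusted p = 0.000724). Tk1 of thymidine salvage stood at 44.9 and 42.9 CPM in KO cultures against 110 and 135 CPM in WT cultures and fell by 1.52 on the log2 scale. Cdc45, the helicase cofactor, fell by 0.73 and Cdt1, the partner of Cdc6 in loading, by 0.59. Of the G1/S genes only E2f8, a repressor of the E2F family, passed, with 4.84 and 4.59 CPM in KO cultures against 12.5 and 9.93 CPM in WT cultures (log2 fold change -1.29). Ccne1, Ccne2 and the activator E2f1 had log2 fold changes of -0.28, -0.40 and -0.51 that did not pass.

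The 3 S/G2 genes fell in KO cultures, as did 12 of the 17 mitotic genes. Mki67 (chromosome 7, 135689784 to 135716361, minus strand), a coat protein of mitotic chromosomes that is read as a marker of proliferation, stood at 43.7 and 25.4 CPM in KO cultures against 76.8 and 56.0 CPM in WT cultures and fell by 0.98 on the log2 scale. Top2a, which untangles replicated DNA, fell by 0.82 and Ccna2, the cyclin of S phase and G2, by 0.68. Birc5 (survivin, of the chromosomal passenger complex) stood at 21.1 and 25.1 CPM in KO cultures against 53.9 and 62.4 CPM in WT cultures. With no overlap it fell by 1.38 on the log2 scale (SE 0.18, edgeR adjusted p = 0.000122), and its partner kinase Aurkb fell by 1.22. Ccnb2, a mitotic cyclin, stood at 21.2 and 19.6 CPM in KO cultures against 45.3 and 49.2 CPM in WT cultures, a change of -1.25 (SE 0.17, edgeR adjusted p = 0.000209). Kif20a, a kinesin of cytokinesis, fell by 1.22, while Ccnb1, the other B cyclin, fell by 0.48 and its kinase Cdk1 by 0.63. Bub1 and Bub1b of the spindle checkpoint fell by 0.74 and 0.82, the centromere proteins Cenpa and Cenpf by 0.90 and 0.60, and Cdc20, which activates the anaphase ubiquitin ligase, by 0.59. Kif23, a kinesin of the midzone, fell by 0.68. The 5 mitotic genes that did not pass were the kinases Aurka (-0.34) and Plk1 (-0.50), the transcription factor Foxm1 (-0.70), the checkpoint kinase Ttk (-0.23) and the spindle motor Kif11. Kif11 stood at 80.5 and 82.6 CPM in KO cultures against 86.1 and 76.4 CPM in WT cultures, with overlapping groups and a log2 fold change of -0.04.

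**Figure D2:**
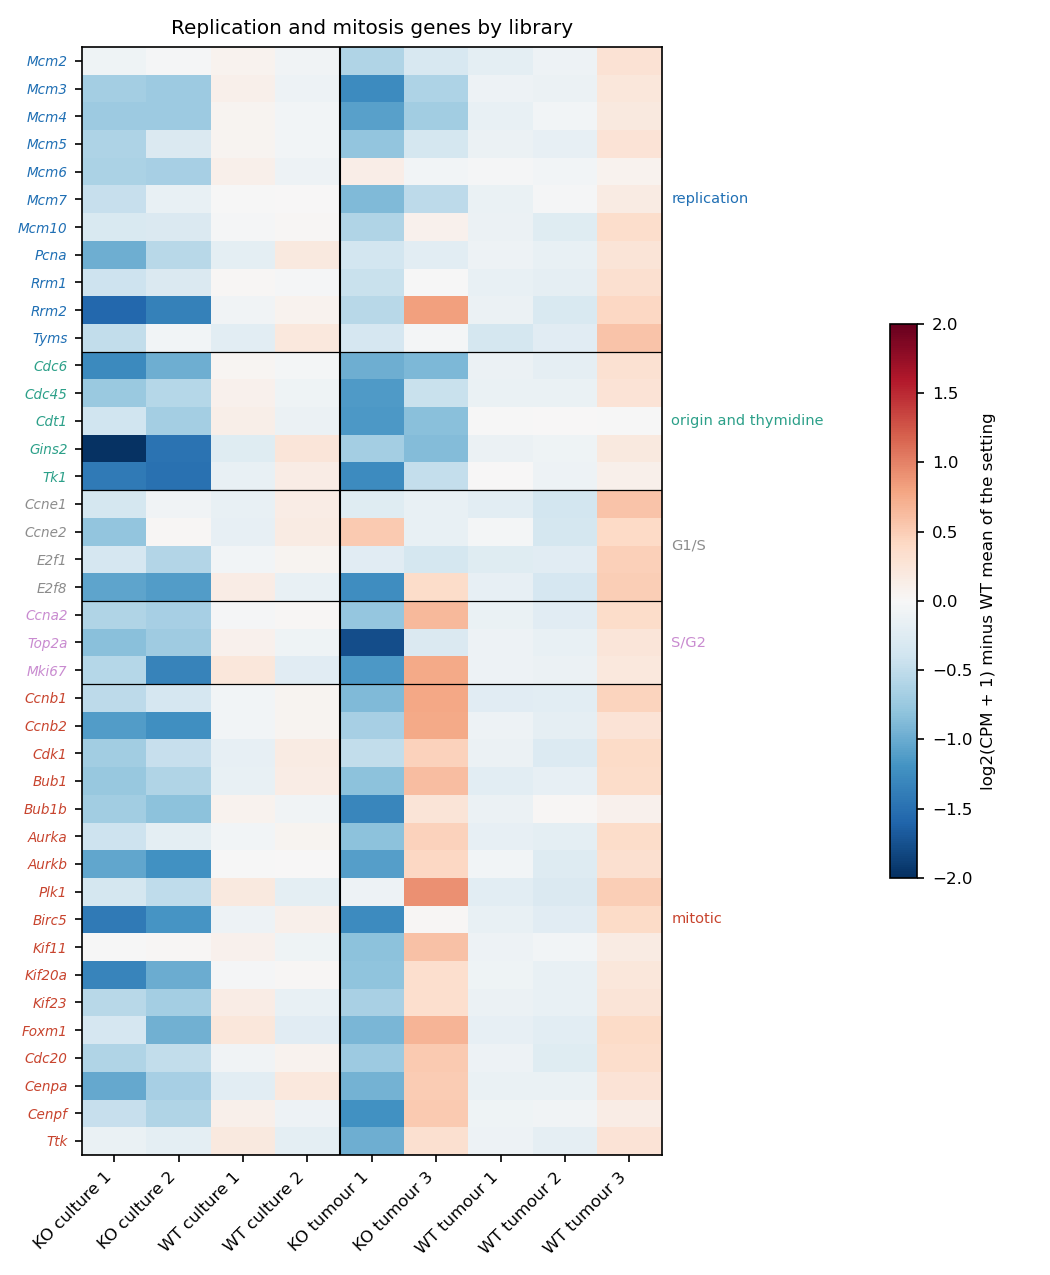
Level of each gene (lines, grouped by role) in each library (columns), as log2(CPM + 1) minus the mean of the WT libraries of the same setting; blue is below and red above that mean. KO cultures are blue for nearly all genes, whereas KO tumour 1 is blue and KO tumour 3 red for most mitotic genes.

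In culture 14 of the 27 calls were kept with each of the 4 libraries left out in turn (Mcm3, Mcm4, Rrm2, Cdc6, Gins2, Tk1, E2f8, Top2a, Ccnb2, Bub1b, Aurkb, Birc5, Kif20a and Cenpa). Without KO culture 1, KO culture 2, WT culture 1 or WT culture 2 the calls kept were 19, 18, 20 and 21, and in 1 fit of all 9 libraries, which shares the spread of the tumours, 12 were kept. Further genes of the same machinery were read from lists made with earlier results of these data known. Of 32 other replication genes 22 fell and 1, the origin recognition subunit Orc2, rose by 0.64 on the log2 scale. The smallest p-values were those of Chaf1b (-1.33) of the chromatin assembly factor, Uhrf1 (-1.17), which helps to maintain DNA methylation, the DNA ligase Lig1 (-1.03) and the primase subunit Prim1 (-1.31). Of 36 other mitosis genes 17 fell and none rose with edgeR, at an unadjusted p under 0.05 or with DESeq2, led by separase (Espl1, -1.58), the kinetochore proteins Spc24 (-1.23) and Nuf2 (-1.04), and the kinase Melk (-0.94). Of all genes tested, 16.2% fell and 9.27% rose. Of 22 genes that govern entry into the cycle, 4 rose and 4 fell, with Rb1, the retinoblastoma repressor of E2F (1.09), the D cyclin Ccnd2 (0.96) and E2f2 (0.87) higher and E2f6, a repressor of the E2F family (-1.66), lower in KO.

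In the tumours the genes called lower all belonged to DNA replication and its nucleotide supply. Of the 40 genes 7 fell in KO tumours, against 10.9% of all 16257 genes tested that fell, and none rose with edgeR, at an unadjusted p under 0.05 or with DESeq2, against 8.78% of all genes that rose with edgeR. The 7 were the helicase genes Mcm3, Mcm4 and Mcm7 and the origin and thymidine genes Cdc6, Cdt1, Gins2 and Tk1. None of the 17 mitotic genes passed with edgeR, at an unadjusted p under 0.05 or with DESeq2. Their median was -0.09, against -0.32 for the replication genes, -0.85 for the origin and thymidine genes and -0.0056 for all genes tested. KO and WT tumours did not overlap, with KO lower, for 12 of the 40 genes, against 26.4% of all genes, and for none of the 17 mitotic genes.

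Cdt1 (chromosome 8, 122568015 to 122573554, plus strand) stood at 32.6 and 40.9 CPM in KO tumours against 73.9, 74.5 and 73.3 CPM in WT tumours. The WT tumours were nearly equal and KO lay far below them, with a log2 fold change of -1.03 (SE 0.13, edgeR adjusted p = 0.00492), and the call was kept with each of the 5 tumours left out in turn. Cdc6 stood at 12.1 and 12.9 CPM in KO tumours against 22.9, 21.8 and 30.9 CPM in WT tumours. Here too the groups did not overlap, at -1.03 (SE 0.20, edgeR adjusted p = 0.017). Gins2 stood at 16.6 and 14.4 CPM in KO tumours against 24.9, 25.6 and 31.4 CPM in WT tumours and fell by 0.83 on the log2 scale (edgeR adjusted p = 0.021). Tk1 stood at 35.9 and 62.3 CPM in KO tumours against 87.5, 80.8 and 93.2 CPM in WT tumours. KO was lower without overlap, and Tk1 fell by 0.85 (edgeR adjusted p = 0.0422). Cdc45 was lower in each KO tumour as well but did not pass (log2 fold change -0.81, SE 0.25, edgeR adjusted p = 0.0647).

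Among the helicase subunits, Mcm3 stood at 69.3 and 109 CPM in KO tumours against 155, 154 and 196 CPM in WT tumours. Mcm4 stood at 43.1 and 56.6 CPM in KO tumours against 83.2, 88.5 and 106 CPM in WT tumours. Both were lower in KO without overlap, Mcm3 at -0.94 (SE 0.21, edgeR adjusted p = 0.0267) and Mcm4 at -0.91 (SE 0.17, edgeR adjusted p = 0.0143), and Mcm7 fell by 0.72. Mcm6 stood at 261 and 230 CPM in KO tumours against 234, 231 and 252 CPM in WT tumours, which overlapped, with a log2 fold change of 0.02 (SE 0.12, edgeR adjusted p = 0.908). Mcm2 (-0.50) and Mcm5 (-0.59) were lower in KO without overlap but did not pass. Pcna had a log2 fold change of -0.32 with no overlap and did not pass (edgeR adjusted p = 0.19). Rrm2 stood at 132 and 343 CPM in KO tumours against 180, 157 and 259 CPM in WT tumours. One KO tumour lay below and the other above all WT tumours, and the log2 fold change was 0.23 (SE 0.39, edgeR adjusted p = 0.708). Rrm1, Tyms and Mcm10 had log2 fold changes from -0.27 to -0.25, with overlapping groups.

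**Figure D3:**
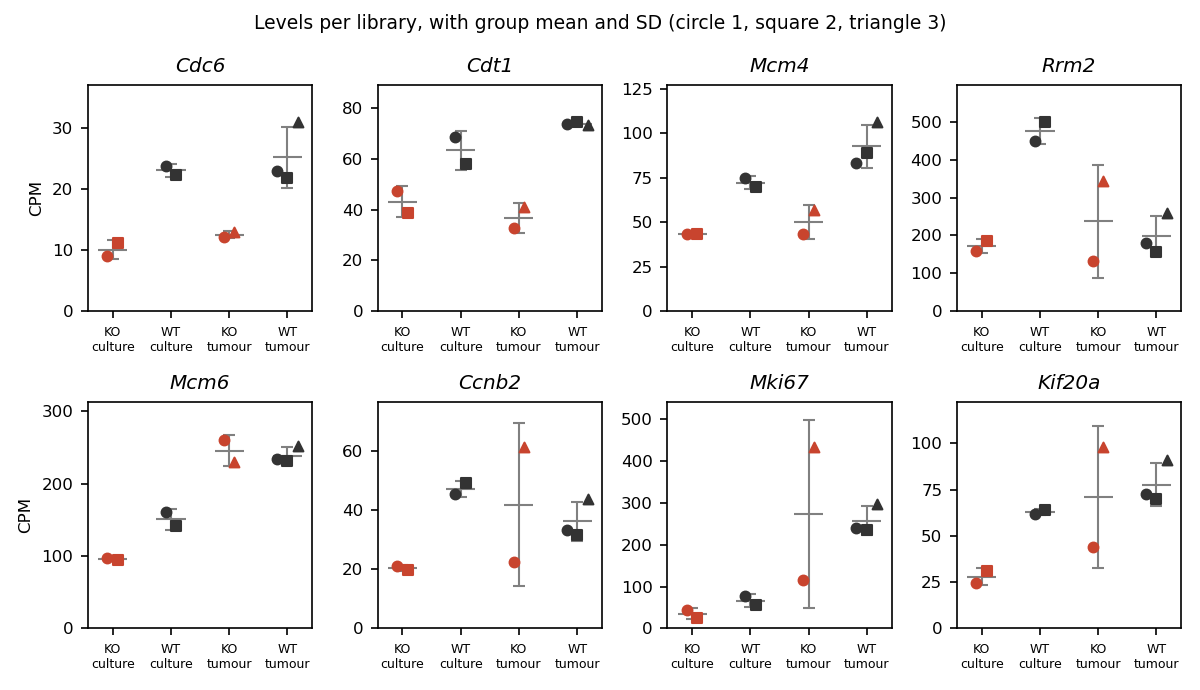
Level (CPM, scaled by TMM over all 9 libraries) of 8 genes in each library, with KO in red and WT in dark grey; horizontal lines are group means and error bars the SD (n = 2, 2, 2 and 3). Cdc6, Cdt1 and Mcm4 were lower in KO in both settings without overlap, while for Rrm2, Ccnb2, Mki67 and Kif20a the KO tumours lay on both sides of the WT tumours.

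The mitotic genes set the 2 KO tumours apart from each other. All 17 were higher in KO tumour 3 than in KO tumour 1, by a median of 1.41 on the log2 scale (0.95 to 1.75), while the 3 WT tumours spanned a median of 0.56. Of all genes tested, 50% were higher in KO tumour 3, with a median of 0, and the WT tumours spanned a median of 0.29. For 15 of the 17 genes KO tumour 1 lay below and KO tumour 3 above all 3 WT tumours, against 4.82% of all genes tested. Ccnb2 stood at 22.3 CPM in KO tumour 1 and 61.3 CPM in KO tumour 3, against 33.3, 31.6 and 43.6 CPM in WT tumours. Foxm1, which drives transcription of genes for G2 and mitosis, stood at 34.8 CPM in KO tumour 1 and 107 CPM in KO tumour 3, against 59.6, 57.1 and 86.8 CPM in WT tumours. Cenpf stood at 40.4 CPM in KO tumour 1 and 138 CPM in KO tumour 3, against 90.3, 91.3 and 105 CPM in WT tumours. KO tumour 1 was thus the lowest and KO tumour 3 the highest of the 5 tumours for each of these genes. The 2 mitotic genes without this order were Birc5, with 18.6 and 46.9 CPM in KO tumours against 41.3, 38.9 and 60.0 CPM in WT tumours, and Plk1, with 42.1 and 86.3 CPM in KO tumours against 39.3, 37.0 and 64.8 CPM in WT tumours.

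The same order was seen in 2 of the 3 S/G2 genes, Mki67 and Ccna2. Mki67 stood at 115 CPM in KO tumour 1 and 434 CPM in KO tumour 3, against 240, 235 and 297 CPM in WT tumours. Top2a differed, with 103 and 291 CPM in KO tumours against 332, 321 and 422 CPM in WT tumours, both KO tumours below all WT tumours, but it did not pass (log2 fold change -0.89, SE 0.40, edgeR adjusted p = 0.159). Of the replication genes 1 of 11, Rrm2, had KO tumour 1 below and KO tumour 3 above all WT tumours, and 6 of 11 had both below. Of the origin and thymidine genes none straddled the WT tumours and 5 of 5 lay below them in both KO tumours. Beyond these genes, 23 of 36 mitosis genes and 1 of 32 replication genes straddled them. Of all genes tested, 4.82% straddled the WT tumours and 26.4% lay below them in both KO tumours. Of the G1/S genes E2f8 stood at 12.2 CPM in KO tumour 1 and 39.7 CPM in KO tumour 3, against 27.1, 23.9 and 43.3 CPM in WT tumours, and none of the 4 passed.

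Replication and mitotic genes were then set against each other within each library, as the mean log2(CPM + 1) of the 11 replication genes minus that of the 17 mitotic genes. This difference was 1.21 and 1.36 in KO cultures against 1.15 and 1.19 in WT cultures. KO cultures lay slightly above WT cultures, by 0.11 in the means, and with the origin and S/G2 genes added to the sets the sign turned, at -0.04. It was 1.19 in KO tumour 1 and 0.28 in KO tumour 3 against 0.94, 0.98 and 0.94 in WT tumours. KO tumour 3 had the smallest excess of replication over mitotic genes among the 9 libraries. The mean of the mitotic genes was 4.94 in KO tumour 1 and 6.30 in KO tumour 3, against 5.67, 5.62 and 6.10 in WT tumours. The mean of the replication genes was 6.13 in KO tumour 1 and 6.58 in KO tumour 3, against 6.61, 6.60 and 7.04 in WT tumours, and both KO tumours lay below all WT tumours. No test was made of these means, since the genes were chosen.

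**Figure D4:**
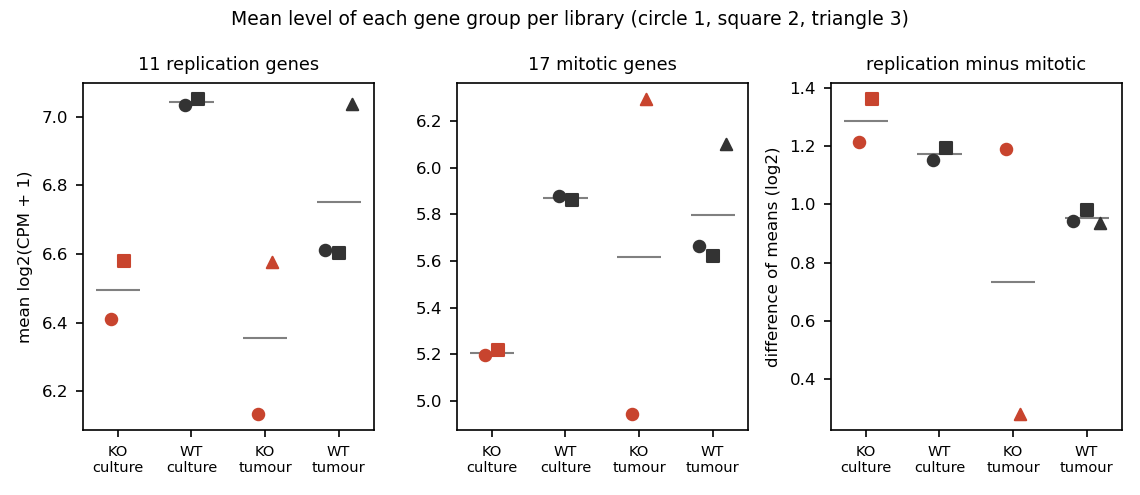
Mean log2(CPM + 1) of the 11 replication genes (left), of the 17 mitotic genes (middle) and their difference (right) in each library, with KO in red and WT in dark grey; points are libraries, horizontal lines are group means, and the y axes do not start at 0. For mitotic genes KO tumour 1 (4.94) is the lowest and KO tumour 3 (6.30) the highest of the 9 libraries, and KO tumour 3 has the smallest difference (0.28).

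The tumour result differed with the KO tumour kept. Without KO tumour 3 the median of the mitotic genes was -0.86, and without KO tumour 1 it was 0.47. Calls of those fits are not listed here, since 1 KO tumour gives no spread between KO tumours. With each tumour left out in turn, the 7 genes called lower kept log2 fold changes below 0. They ran from -1.27 to -0.65 for Mcm3, -1.09 to -0.74 for Mcm4 and -0.88 to -0.56 for Mcm7. For Cdc6 they ran from -1.13 to -0.88, for Cdt1 -1.17 to -0.88, for Gins2 -0.95 to -0.70 and for Tk1 -1.27 to -0.51. Without WT tumour 1 the calls were Mcm4 and Cdt1, without WT tumour 2 Cdc6 and Cdt1, and without WT tumour 3 the 5 genes Mcm4, Mcm7, Cdc6, Cdt1 and Gins2. Calls over all genes also changed, to 1258, 1171 and 2732 in these 3 fits, against 3206 with all tumours. WT tumours 1 and 2 were the closest pair of replicates (chi-square per gene 6.55) and entered the test as 2 samples. The part of their closeness in the calls was not tested. DESeq2 called 9 genes lower, the same 7 with Mcm5 and Cdc45, and scaling by library totals lost Tk1. Over all genes and in either direction, DESeq2 called 4178 and library totals 3161.

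Summed markers of cell types also differed between the tumours. The 6 epithelial markers summed to 10006 CPM in KO tumour 1 and 7783 CPM in KO tumour 3, against 4774 to 5975 CPM in WT tumours. Of the 6, 4 were higher in KO without overlap. Epcam went the other way, with 34.3 and 41.0 CPM in KO tumours against 107, 157 and 67.0 CPM in WT tumours. Krt7 lay above all WT tumours in KO tumour 1 (884 CPM) and below them in KO tumour 3 (474 CPM). The 10 leukocyte markers (Ptprc, Csf1r, Adgre1, Itgam, Cd3e, Cd3g, Cd8a, Cd79a, S100a8, Flt3) summed to 83.9 CPM in KO tumour 1 and 164 CPM in KO tumour 3, against 71.1 to 98.5 CPM in WT tumours. The 8 stromal and endothelial markers (Pdgfra, Pdgfrb, Col1a1, Col3a1, Dcn, Pecam1, Cdh5, Kdr) summed to 294 CPM in KO tumour 1 and 482 CPM in KO tumour 3, against 787 to 2201 CPM in WT tumours. Most of each sum was Col1a1 and Col3a1. Of the 8, 3 (Pdgfra, Col1a1 and Col3a1) were lower in KO without overlap, against 26.4% of all genes, and 5 overlapped. Among the 5, the endothelial Pecam1 stood at 8.88 and 20.5 CPM in KO tumours against 21.0, 15.7 and 34.9 CPM in WT tumours. None of these 24 markers was at 0 in any tumour. Mitochondrial transcripts took 3.33% of counts in KO tumour 1 and 2.69% in KO tumour 3, against 1.90% to 2.00% in WT tumours. In culture the leukocyte markers summed to 9.35 to 10.4 CPM in KO and 3.22 to 3.98 CPM in WT, with Itgam, Cd3e and Cd8a at 0 in all 4 libraries. Most of each sum was Ptprc, at 8.51 and 10.1 CPM in KO cultures against 2.46 and 3.07 CPM in WT cultures. The stromal and endothelial markers summed to 0.139 to 0.668 CPM in KO cultures and 1.70 to 2.59 CPM in WT cultures. Among them Col1a1 stood at 0 and 0.0695 CPM in KO cultures against 2.34 and 0.849 CPM in WT cultures. The part of other cells in the tumour result was not tested.

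Further genes of the machinery were read in the tumours as well. Of 32 other replication genes 7 fell in KO tumours and none rose with edgeR or DESeq2, while 2 were higher at an unadjusted p under 0.05. Of all genes tested in the tumours, 10.9% fell and 8.78% rose. Chaf1b stood at 18 and 15.8 CPM in KO tumours against 32.4, 30.9 and 34.3 CPM in WT tumours, lower in KO without overlap (log2 fold change -0.96, SE 0.14, edgeR adjusted p = 0.00811). The polymerase delta subunit Pold2 fell by 0.94, the origin recognition subunit Orc6 by 0.61 and Dnmt1, which copies DNA methylation, by 0.82, and the others were Pola1, Chaf1a and Lig1. Of 36 other mitosis genes none passed with edgeR or DESeq2, and 1 was lower at an unadjusted p under 0.05. Of 22 genes that govern entry into the cycle, Rb1 rose by 0.73 on the log2 scale, with 37.8 and 41.0 CPM in KO tumours against 21.0, 21.4 and 28.1 CPM in WT tumours. E2f6 fell by 1.21 and the repressor E2f4 by 0.46.

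**Figure D5:**
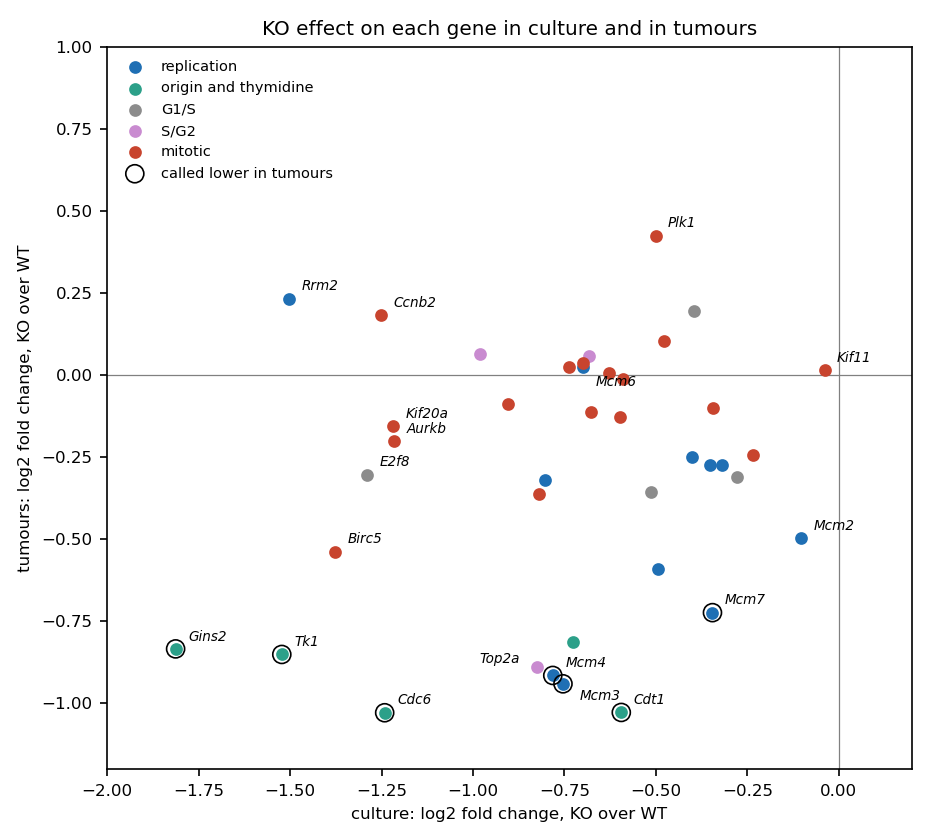
Log2 fold change of KO over WT in culture (x axis) and in tumours (y axis) for each of the 40 genes, coloured by role; rings mark the 7 genes called lower in tumours. All points lie left of 0, and the ringed genes are replication or origin and thymidine genes.

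The 2 settings were then compared gene by gene. Of the 40 genes 6 fell in both settings (Mcm3, Mcm4, Cdc6, Cdt1, Gins2 and Tk1), 21 were called in culture and not in tumours, Mcm7 was called in tumours and not in culture, and 12 in neither. Of the 13147 genes tested in both settings, 5.69% fell in both. The shares of those genes called in culture alone, in tumours alone or in neither setting were not computed. The counts of the 40 genes in these classes are therefore a description only. They do not show a KO effect that differs between settings, since that difference passed for none of the 40 genes with edgeR. Across the 40 genes the fold changes of culture and of tumours, which share no library, had a Pearson r of 0.19 and a Spearman rho of 0.14, as a description over genes that are not independent.

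The difference of the KO effect, tumours minus culture, passed for none of the 40 genes with edgeR, against 5.69% of all 16793 genes tested (4.15% higher and 1.54% lower). At an unadjusted p under 0.05 stood 5 of the 40 genes, against 3527 of all 16793 genes. DESeq2 called 3 genes, Mcm6, Rrm2 and Ccnb2, each with the higher KO effect in tumours, against 1625 of all genes in either direction. With edgeR, Rrm2 had a difference of 1.72 (SE 0.48, edgeR adjusted p = 0.0632), Mcm6 one of 0.70 (SE 0.19, edgeR adjusted p = 0.0552) and Ccnb2 one of 1.42 (SE 0.48, edgeR adjusted p = 0.114). The median difference was 0.62 over the mitotic genes and 0.02 over the replication genes, beside 0.05 over all genes tested. With KO tumour 1 left out 13 genes passed, all with the higher KO effect in tumours, with KO tumour 3 left out Mcm6 passed as higher and Top2a and Kif11 as lower, and without WT tumour 3 Rrm2 passed.

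Between tumours and culture of the same line, the 40 genes were called in each direction no more often than all genes. Setting is also the batch tag of the labels, and tumours hold host cells, so that setting, batch and cell mixture cannot be told apart. In KO, 10 of the 40 genes were called higher in tumours and 8 lower, against 32.9% and 26.4% of all genes, and in WT 7 were called higher and 10 lower, against 36.1% and 29.6% of all genes. By library totals the calls were 17 higher and 2 lower in KO and 15 higher and 5 lower in WT. Of all 16793 genes, 10295 were then called in KO (74.4% of them higher) and 11564 in WT (72.7% of them higher). The median of all genes was 0.60 in KO and 0.64 in WT in place of 0.17 in both, so that directions are relative to that shift.

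The 7 genes called higher in tumours in both lines, under either scaling, were Mcm6, E2f8, Mki67, Plk1, Kif23, Foxm1 and Cenpf. Mki67 had a log2 difference of 2.99 in KO and 1.95 in WT, with tumour levels of 115 and 434 CPM in KO and 240, 235 and 297 CPM in WT against culture levels of 43.7 and 25.4 CPM in KO and 76.8 and 56.0 CPM in WT. E2f8 had a log2 difference of 2.46 in KO and 1.49 in WT, and Cenpf one of 1.91 in KO and 1.45 in WT. The helicase subunits went apart, with Mcm6 at 1.36 in KO and 0.66 in WT and Mcm7 at -1.11 in KO and -0.71 in WT, and the Mcm7 call in WT was lost by library totals. The 8 genes called lower in both lines were Mcm7, Pcna, Tyms, Gins2, Ccne1, Ccne2, Cdk1 and Aurka. Of these, Ccne2, the second E cyclin, was the one called lower in both lines under both scalings. Its log2 difference was -1.58 in KO and -2.13 in WT. The share of all genes called the same way in both lines was not computed, so the 7 and the 8 genes are a description only.

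Levels between genes were compared per kilobase of exon, with the length taken as the union of all annotated exons of a gene. This union can be longer than any 1 transcript, which lowers the value per kilobase for such genes. Pcna was highest in KO cultures, at 151 CPM per kb, ahead of Rrm2 at 62.3 CPM per kb, and in WT cultures at 257 CPM per kb, ahead of Rrm2 at 171 CPM per kb. In KO tumours Rrm2 (85.7 CPM per kb) and Pcna (82.7 CPM per kb) led, with Rrm2 spread widely between the 2 KO tumours, and in WT tumours Pcna led at 102 CPM per kb. The lowest of the 40 was the repressor E2f8 in culture, at 0.866 CPM per kb in KO and 2.06 CPM per kb in WT, and Ccne1 in tumours, at 2.36 CPM per kb in KO and 2.89 CPM per kb in WT.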

How the data were processed

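Poly(A) RNA of 9 libraries was sequenced with added ERCC control RNA, and duplicates were removed by molecular identifiers, per the labels' protocols. The authors deposited unnormalized read counts for each Ensembl gene, in 1 table for culture and 1 for tumours. The submitters' processing notes name the build GRCm38 and, without role or order, DESeq2, STAR 2.5.2b, fastp 0.23.1, Subread 1.5.2 and featureCounts. Annotation release, strandedness and the handling of multi-mapping reads were not given in the sources used here. Normalized and rlog tables, also deposited, were not used. Symbols come from GENCODE M21 (49326 of 49671 genes). The second KO tumour column is numbered 3 while its label says 2, and was therefore used as a KO tumour without a replicate number. The labels call the replicates biological.

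filterByExpr with a minimum count of 10 and a minimum total of 15 removed low genes. Counts were scaled by TMM, and edgeR 4.0.16 (R 4.3.3) ran its quasi-likelihood test within each setting for KO against WT, and in 1 fit of all 9 libraries for the difference of the KO effects and for tumours against culture. P-values were adjusted by Benjamini and Hochberg over all genes tested, with a threshold of 0.05, and SEs were obtained by dividing each log2 fold change by the root of its F statistic. The scripts were tested on simulated data. Printed levels are scaled by TMM over all 9 libraries, so that they differ slightly from the levels each within-setting test used. The members and gene lists were chosen with earlier results of these data known. Every member may be named, with Itga2, the markers, and up to 4 genes of each other list with the smallest p in a comparison. Orc2 and, in tumours, Pola1, Chaf1a and Lig1 were named outside that rule, after their values were seen. The alternatives were RLE scaling, library totals, no filter, DESeq2 1.42.0, 1 fit of all libraries, the replicate number as a block in culture, each library left out in turn, wider lists, and pseudocounts of 0.1 and 5.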

Additional observations from a re-analysis of the deposited data

Results flagged for a closer look

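Among the other replication genes, Rpa3, the small subunit of the single-strand DNA binding protein RPA, had a KO effect that differed between tumours and culture by the test of the difference itself. The difference was 1.36 on the log2 scale (SE 0.32, edgeR adjusted p = 0.0327). Rpa3 stood at 39.2 and 58.7 CPM in KO cultures against 71.9 and 108 CPM in WT cultures, and fell there by 0.92 on the log2 scale (edgeR adjusted p = 0.00939). In tumours it stood at 28.0 and 29.8 CPM in KO against 19.8, 18.5 and 23.8 CPM in WT, with KO above WT without overlap and a log2 fold change of 0.46 that did not pass (edgeR adjusted p = 0.0847). It was the 1 gene with such a difference among the 40 genes and the 90 other genes of the cell cycle lists, against 5.69% of all genes. With each library left out in turn the difference ran from 1.05 to 1.68, and the edgeR adjusted p from 0.0235 to 0.16. The call was lost without KO culture 1, WT culture 2, WT tumour 1 or WT tumour 2.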

How the results depend on the processing

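Of 1320 values of the 40 genes under alternatives (3 comparisons of KO with WT), 1096 kept direction and call, 68 lost the call, 60 gained one, 3 turned round, and 93 uncalled values crossed 0, 84 of them with a library left out. Without KO tumour 3, Mki67 in tumours was -1.14 (0.73 without KO tumour 1), Kif11 in tumours -0.83 (0.56 without KO tumour 1), and Kif11 in the difference of KO effects -0.84 (0.61 without KO tumour 1). In 1 fit of all 9 libraries, 12 of the 40 genes fell in culture. The difference of KO effects was called higher for 9 of the 40 genes with no filter and for 3 with DESeq2, and in either direction for 1875 of all genes with no filter and 1625 with DESeq2. By library totals, tumours against culture gave 17 higher, 2 lower and a replication median of 0.33 in KO, and 15 higher, 5 lower and a median of 0.54 in WT; of all genes called, 74.4% in KO and 72.7% in WT were higher, in place of 55.5% and 54.9%. The cause was not tested.

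With each library left out in turn, 19 to 23 of the 40 genes fell in culture (all genes called 2130 to 2985), and 2 to 18 fell and 0 to 1 rose in tumours (all genes 1171 to 4143). The difference gave 0 to 2 lower and 0 to 13 higher (all genes 288 to 1651), with a replication median of -0.34 to 0.29. Tumours against culture gave 3 to 13 lower and 8 to 19 higher in KO, and 9 to 14 lower and 2 to 8 higher in WT. Where 1 library was left in a group, it was assumed to vary like the others.

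With the replicate number as a block (replicate block), possible in culture alone, 36 of the 40 genes fell and 7587 of all genes were called, with 1 residual degree of freedom. Same-numbered cultures deviated together, with a correlation of 0.55 over 13573 genes, but the labels give no shared batch or day, so the numbers were not taken to pair the samples. No block was fitted in tumours, where 1 KO column has no label number. With 2 or 3 libraries a group, the spread within a group is estimated with low precision; the lowest count of any of the 40 genes in a library was 66.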
